A study of Mus musculus with 491 samples.

Results

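The 4 genes described here are the neurotrophins Bdnf and Ntf3 and the receptors Ntrk2 and Ngfr, 4 of the 19494 genes with a usable row. They were read in all 491 cells of the study and were chosen with earlier results of these data known. Ntrk3, which encodes the main receptor of neurotrophin 3, has repeated rows in the deposited table and was not analysed here. All cells came from E10.5 mouse embryos (midgestation) of the genotype Pax2-Cre/+;Ai14-tdTomato/+. Otic vesicle and periotic tissue was dissected, and tdTomato-positive cells were sorted 1 per well and made into full-length cDNA libraries. There is no other genotype, treatment or stage, so every comparison is between kinds of cell. Plates 1 to 3 (237 cells) are labelled replicate 1, and plates 4 to 6 (254 cells) replicate 2. The labels do not say what a replicate stands for or how many embryos went into it. The spread between these 2 replicates may therefore be technical. The p-values rest on the part of that spread left after a shift common to all classes is removed. For each gene this spread is pooled over all classes of a fit. A class that varies more therefore has no larger SE, and class means count alike whatever their number of cells. Cre in this line marks any cell that has expressed the Pax2 transgene and all its descendants, so the sort holds more than ear cells.

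Neurotrophins are secreted growth factors that keep neurons alive and shape their connections. Brain-derived neurotrophic factor (Bdnf) acts through TrkB, the tyrosine kinase encoded by Ntrk2, and neurotrophin 3 (Ntf3) acts mainly through TrkC. The p75 receptor, encoded by Ngfr, binds all neurotrophins and also their uncleaved precursors, and can promote survival or death. In the inner ear, BDNF and neurotrophin 3 from the sensory epithelium are known to sustain the sensory neurons that delaminate from the otic vesicle, which are lost in different proportions when either ligand is missing.

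In the GRCm38 assembly with the GENCODE M21 annotation, Bdnf (ENSMUSG00000048482) lies on the plus strand at chr2:109674700-109727007 and Ntf3 (ENSMUSG00000049107) on the minus strand at chr6:126101412-126166910. Ntrk2 (ENSMUSG00000055254) lies on the plus strand at chr13:58806569-59133970, and Ngfr (ENSMUSG00000000120) on the minus strand at chr11:95568818-95587735. Each row gives 1 value for a whole gene, so the alternative Bdnf leaders and the kinase-less forms of TrkB cannot be told apart. RefSeq start sites gave 7 windows for Bdnf, 2 for Ntf3 and 1 each for Ntrk2 and Ngfr, each holding 250 bases before and 50 bases after a start. These were searched on both strands for CAGATG, an E-box that proneural factors such as Neurod1 can bind. The letters were present in 1 of the 7 Bdnf windows, 1 of the 2 Ntf3 windows and the Ntrk2 window, and not in the Ngfr window. Of all 32851 windows in the table, 17.2% held them. The 250 bases before the start are shown for the 3 windows with a match. A link between these letters and the differences between classes described below was not tested. Capitals mark CAGATG or its reverse complement CATCTG. Each line runs 5′ to 3′ on the strand of the gene, in GRCm38.p6. The Bdnf stretch is chr2:109722671-109722920 on the plus strand with the match starting at position -221, the Ntf3 stretch is chr6:126164961-126165210 on the minus strand with the match at -48, and the Ntrk2 stretch is chr13:58806319-58806568 on the plus strand with the match at -138, counted back from the start.
Bdnf: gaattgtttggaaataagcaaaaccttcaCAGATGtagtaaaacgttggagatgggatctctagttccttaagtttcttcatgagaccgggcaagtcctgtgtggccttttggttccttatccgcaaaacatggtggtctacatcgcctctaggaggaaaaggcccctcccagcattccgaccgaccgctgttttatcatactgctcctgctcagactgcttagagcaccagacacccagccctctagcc
Ntf3: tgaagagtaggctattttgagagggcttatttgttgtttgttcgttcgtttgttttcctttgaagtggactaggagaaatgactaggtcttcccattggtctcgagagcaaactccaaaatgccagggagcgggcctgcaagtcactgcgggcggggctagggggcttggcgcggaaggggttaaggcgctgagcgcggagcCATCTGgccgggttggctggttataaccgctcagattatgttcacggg
Ntrk2: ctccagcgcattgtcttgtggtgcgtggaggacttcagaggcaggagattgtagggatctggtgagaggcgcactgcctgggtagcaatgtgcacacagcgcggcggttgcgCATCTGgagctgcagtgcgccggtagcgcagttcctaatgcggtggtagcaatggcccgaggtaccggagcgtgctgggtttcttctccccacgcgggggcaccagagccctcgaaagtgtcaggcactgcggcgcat
A match is a description of the letters and says nothing about binding, and the Bdnf and Ntf3 windows without the letters serve other start sites of the same genes.

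The classes in which the genes are described were made from 96 marker genes, none of them a member, and named after their markers with the ending "-like" because the labels give no cell type. Otic epithelium-like cells (145) held Epcam in 97.9%, Sox10 in 80.0% and Lmx1a in 66.2% of cells. They comprised a cluster of 88 cells led by Tbx1 and one of 57 cells led by Gbx2. Early neuroblast-like cells (33) all held Neurod1, with Pou4f1 in 36.4% and Stmn2 in 24.2%. Differentiating neuron-like cells (47) all held Neurod1, Pou4f1 and Isl1, with Stmn2 in 97.9%. Epibranchial neuron-like cells (45) held Phox2a in 84.4%, surface ectoderm-like cells (40) Trp63 in 95%, mesenchyme-like cells (23) Twist1 in 87.0%, and neural tube progenitor-like cells (123) Fabp7 in 95.9%. A cluster of 12 cells led by Otx2 and Lmx1a and a cluster of 23 cells led by Dll3 and Crabp1 fell between the lists and kept their leading genes as names. No cluster was led by neural crest or glial markers, so a planned comparison with such cells could not be made. In the Gbx2-led cluster 6 cells, and elsewhere 1 early neuroblast-like cell held at least 4 endothelial or at least 4 macrophage markers.

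Some wells held a small part of what another well held, here called transfer between wells, and this bears on every share below. Whether cDNA moved or reads were assigned to the wrong well was not tested. Rare transcripts were shared along 38 linked pairs of well positions. Cells with a source well (337 of 491) sat in a receiving position whose source well held a cell of the study. The other 154 include receiving positions whose source well has no cell in the study, so transfer into them is not excluded. A receiving well held a median of 3.94% of the source level over the links, with a range of 1.65% to 14.51%. A cell is said to hold a gene when its FPKM (fragment counts scaled to transcript length and library size) was at least 1. Of the 202 cells with Bdnf, 143 had a source well and 76 of those sources held Bdnf as well. Shares in the text are as deposited unless stated otherwise, so transfer may have raised them. Some are also given after setting to 0 the values that transfer could account for, or in the 154 cells without a source well. The plot comparing deposited with corrected shares by class shows all these settings for each gene. A value was set to 0 where it was no more than the upper-decile ratio of its link times the source level, with that ratio capped at 50%. The correction removed 39 of 202 cells with Bdnf, 16 of 84 with Ntf3, 23 of 117 with Ntrk2 and 5 of 25 with Ngfr.

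Bdnf was the most widespread of the 4 genes, present in 202 cells (41.1%). As deposited, it was in nearly all early neuroblast-like cells and in more than 50% of otic epithelium-like and differentiating neuron-like cells. It was in few cells of the mesenchyme-like and surface ectoderm-like classes. The share was 29 of 33 early neuroblast-like cells (87.9%, exact 95% interval 71.8 to 96.6, counting error only). It was 85 of 145 otic epithelium-like cells (58.6%), 26 of 47 differentiating neuron-like cells (55.3%) and 18 of 45 epibranchial neuron-like cells (40%). After correction for transfer the shares of these classes, in the same order from early neuroblast-like cells, were 81.8%, 52.4%, 44.7% and 26.7%. Among cells without a source well, 8 of 14 differentiating neuron-like cells held Bdnf (57.1%). Neural tube progenitor-like cells held it in 33 of 123 cells (26.8%), surface ectoderm-like cells in 4 of 40 (10%) and mesenchyme-like cells in 2 of 23 (8.7%). Otic epithelium-like and early neuroblast-like cells supplied 40.8% and 31.6% of the FPKM summed over all cells.

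**Figure D1:**
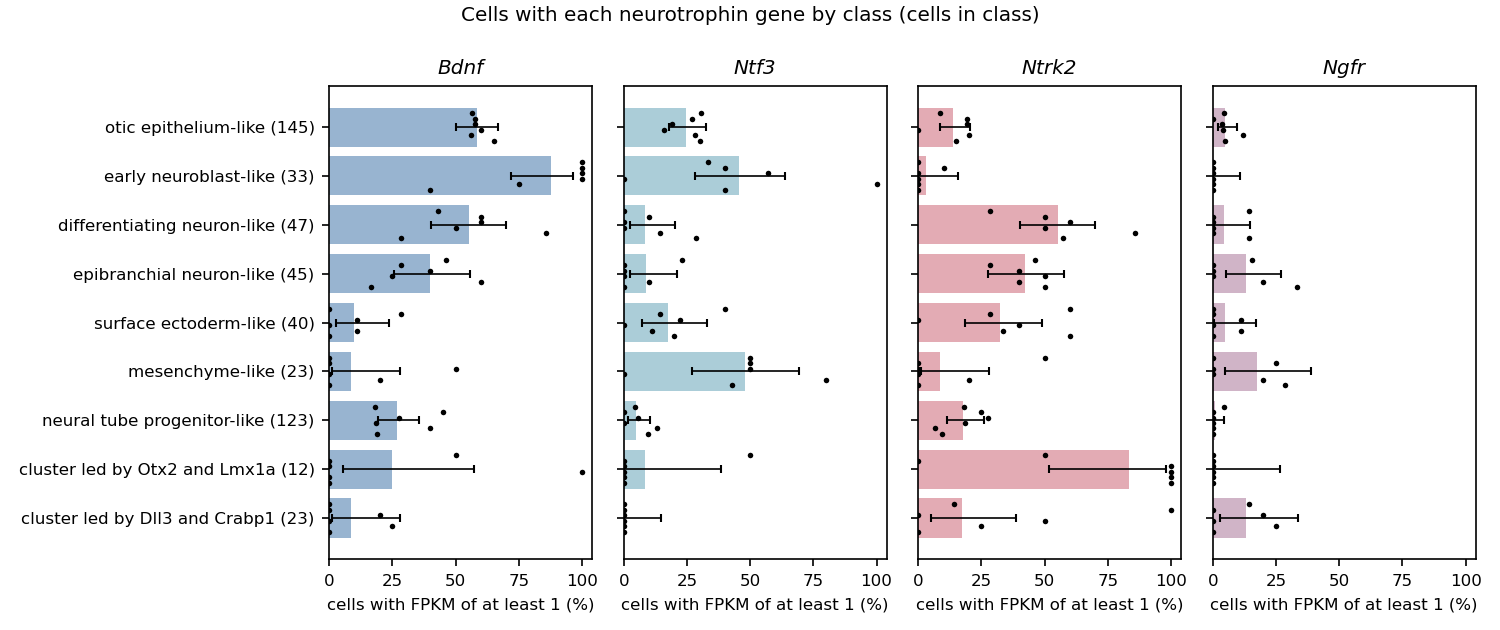
Percent of cells of each class (rows, number of cells in parentheses) with an FPKM of at least 1 for Bdnf, Ntf3, Ntrk2 and Ngfr; bars give all cells, lines the exact 95% interval and points the 6 plates. Bdnf is highest in early neuroblast-like cells (87.9%), Ntf3 in mesenchyme-like (47.8%) and early neuroblast-like cells (45.5%), and Ntrk2 in the cluster led by Otx2 and Lmx1a (83.3%) and differentiating neuron-like cells (55.3%).

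The level of Bdnf rose from otic epithelium-like to early neuroblast-like cells and fell again in differentiating neuron-like cells. Mean log2(FPKM + 1) was 2.48 and 2.63 in otic epithelium-like cells of replicates 1 and 2, 3.91 and 5.59 in early neuroblast-like cells, and 2.45 and 2.52 in differentiating neuron-like cells. Both early neuroblast-like means lay above all the others, and the 6 plates ranged from 2.73 to 7.02 in that class against 2.15 to 2.87 in otic epithelium-like cells, so the plates overlapped. On the log2(FPKM + 1) scale, early neuroblast-like cells exceeded otic epithelium-like cells by 2.19 (SE 0.45, limma with Benjamini-Hochberg adjustment over 10168 genes, adjusted p = 0.010), with the same direction in 6 of 6 plates. In that comparison 3.39% of genes were called. Differentiating neuron-like cells lay below early neuroblast-like cells by a difference of -2.26 (SE 0.45, adjusted p = 0.0086), again in 6 of 6 plates, in a comparison that called 4.2% of genes. Between differentiating neuron-like and otic epithelium-like cells the difference was -0.07 (SE 0.45, adjusted p = 0.96). Without plate 3 the difference was 1.68 (adjusted p = 0.19) against otic epithelium-like cells and -1.89 (adjusted p = 0.086) for neurons against early neuroblast-like cells. With log2 of the mean FPKM + 1 these differences were 1.62 (adjusted p = 0.27) and -1.74 (adjusted p = 0.21), and among the cells that had no source well they were 2.39 (adjusted p = 0.32) and -1.90 (adjusted p = 0.53). The members were not among the markers, but genes that move with the markers help to define these classes, so the p-values apply to the classes as made here.

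Within the otic epithelium-like class Bdnf was unevenly spread. It was in 62 of 88 Tbx1-led cells (70.5%) and in 23 of 57 Gbx2-led cells (40.4%). Mean log2(FPKM + 1) was 3.1 and 3.44 in the replicates of the Tbx1-led cluster and 1.66 and 1.2 in those of the Gbx2-led cluster, so the replicates did not overlap. The difference of 1.83 (SE 0.46) had the same direction in 6 of 6 plates but did not pass the test over all genes (limma, adjusted p = 0.12), in a comparison that called 0.384% of genes and was added after the data were seen. Tbx1, a transcription factor that restrains neurogenesis in the otic vesicle, was used to make these clusters. Bmp4, a growth factor gene of the prospective cristae, was in 29.4% of the 85 otic epithelium-like cells with Bdnf and 13.3% of the 60 without. Since Bdnf was unevenly spread over the clusters, these shares overlap with that split, and they were not tested.

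Bdnf was lower in mesenchyme-like and surface ectoderm-like cells than in otic epithelium-like cells. Mean log2(FPKM + 1) was 0.16 and 0.55 in the replicates of mesenchyme-like cells and 0.08 and 0.67 in those of surface ectoderm-like cells, below both otic replicates in each case. The differences from otic epithelium-like cells were -2.20 (SE 0.45, limma, adjusted p = 0.0090) for mesenchyme-like cells and -2.18 (SE 0.45, adjusted p = 0.012) for surface ectoderm-like cells, each with 6 of 6 plates lower, in comparisons that called 3.67% and 2.7% of genes. The call for mesenchyme-like cells was lost with classes set by marker score (-1.46, adjusted p = 0.14), and that for surface ectoderm-like cells in cells without a source well (-2.21, adjusted p = 0.54). Neural tube progenitor-like cells had means of 0.82 and 1.07, and their difference of -1.61 (SE 0.45) did not pass (adjusted p = 0.064, 3.62% of genes called). Among cells that held Bdnf the median was 13.8 FPKM in the neural tube progenitor-like class, 17.9 in the 4 surface ectoderm-like cells, 22.1 in otic epithelium-like cells and 69.7 in early neuroblast-like cells. After correction for transfer 20 of the 33 neural tube progenitor-like cells with Bdnf were left (16.3% of the class), and 8 of 39 cells without a source well held it (20.5%).

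**Figure D2:**
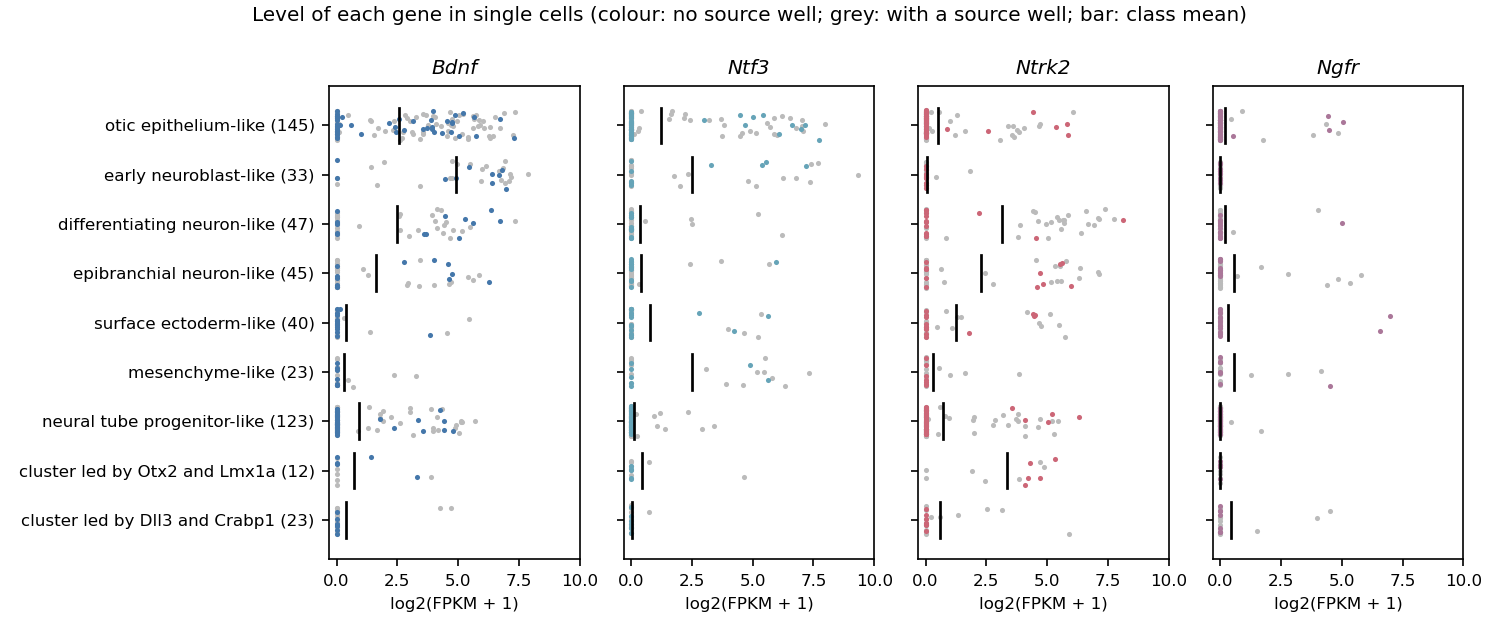
Log2(FPKM + 1) of each gene in single cells by class (rows); coloured points are cells without a source well, grey points cells with one, and black bars class means. The highest Bdnf cell (233 FPKM) and the highest Ntf3 cell (640 FPKM) are early neuroblast-like, and the highest Ntrk2 cell (274 FPKM) is differentiating neuron-like.

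Ntf3 was in fewer cells than Bdnf, 84 in all (17.1%), and its leading classes were mesenchyme-like and early neuroblast-like cells. It was in 11 of 23 mesenchyme-like cells (47.8%, interval 26.8 to 69.4), in 15 of 33 early neuroblast-like cells (45.5%, interval 28.1 to 63.6) and in 36 of 145 otic epithelium-like cells (24.8%). It was in 7 of 40 surface ectoderm-like cells (17.5%), 4 of 45 epibranchial neuron-like cells (8.9%), 4 of 47 differentiating neuron-like cells (8.5%) and 6 of 123 neural tube progenitor-like cells (4.9%). The highest single value of any member was Ntf3 at 640 FPKM in an early neuroblast-like cell of plate 4. Where neural tube progenitor-like cells held Ntf3, its median was 2.82 FPKM, and correction left 1 of those 6 cells.

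Ntf3 fell between early neuroblast-like and differentiating neuron-like cells. Mean log2(FPKM + 1) was 2.44 and 2.53 in the early neuroblast-like replicates and 0.73 and 0.09 in the differentiating neuron-like replicates, which did not overlap. The difference was -2.07 (SE 0.38, limma, adjusted p = 0.0045), lower in 5 of 6 plates with the remaining plate at 0 in both classes. Values within early neuroblast-like cells varied more between plates than those of Bdnf, from no cell with Ntf3 on plate 3 to all 4 of the cells on plate 2, and without plate 2 the difference was -1.28 (adjusted p = 0.16). Among cells without a source well, 4 of 10 early neuroblast-like cells and 0 of 14 differentiating neuron-like cells held Ntf3 (difference -2.15, adjusted p = 0.084). Against otic epithelium-like cells the early neuroblast-like class stood 1.23 higher (SE 0.38), which did not pass (limma, adjusted p = 0.10); without plate 5 the value was 1.71 (adjusted p = 0.018) and without plate 2 it was 0.50 (adjusted p = 0.74).

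Within the otic epithelium-like class Ntf3 was nearly all in the Tbx1-led cluster, with 33 of 88 cells (37.5%) against 3 of 57 Gbx2-led cells (5.3%). Mean log2(FPKM + 1) was 2.15 and 1.71 in the Tbx1-led replicates and 0.14 and 0.34 in the Gbx2-led replicates. The difference of 1.69 (SE 0.38) was positive in 6 of 6 plates, with an adjusted p of 0.058 in limma, just above the threshold. Otic epithelium-like cells with Ntf3 also differed from those without it in other genes: Lfng, a Notch-modifying enzyme of the neurosensory domain, was in 38.9% of the 36 cells with Ntf3 and 5.5% of the 109 without. Fgf3 was in 22.2% and 2.8%, and Lmx1a, a gene of the non-sensory otic domain, in 38.9% and 75.2%. Of the 36 cells with Ntf3, 33 were in the Tbx1-led cluster, so these shares overlap with that split, and Lmx1a was among the markers used to make it. The shares describe 1 class of pooled plates and were not tested.

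In mesenchyme-like cells Ntf3 had means of 2.19 and 3.11 in the replicates against 1.29 and 1.22 in otic epithelium-like cells, so the replicates did not overlap. The difference of 1.4 (SE 0.38) was at the edge of the threshold (limma, adjusted p = 0.051), in 5 of 6 plates. Over the alternatives that kept all plates it ran from 0.69 (adjusted p = 0.94, log2 of the mean FPKM + 1) to 2.15 (adjusted p = 0.062, log2(FPKM + 0.1)), and it was called with upper-quartile scaling (1.48, adjusted p = 0.039). Of the 11 mesenchyme-like cells with Ntf3, all held Pdgfra, a receptor gene of mesenchyme, against 66.7% of the 12 cells without. Of the 7 mesenchyme-like cells without a source well, 2 held Ntf3.

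Bdnf and Ntf3 were together in 48 cells, which is 23.8% of cells with Bdnf and 57.1% of cells with Ntf3. After correction for transfer 32 cells held both, and 12 of the 154 cells without a source well did. The 48 included 24 otic epithelium-like and 12 early neuroblast-like cells. In early neuroblast-like cells Ntf3 was in 41.4% of the 29 cells with Bdnf. Pou4f1, a transcription factor of sensory neurons, was in 13.3% of the 15 early neuroblast-like cells with Ntf3 and 55.6% of the 18 without, a difference chosen after its values were seen and not tested.

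Ntrk2, the receptor of BDNF, was in 117 cells (23.8%). It was in 10 of 12 cells of the cluster led by Otx2 and Lmx1a (83.3%, interval 51.6 to 97.9), 26 of 47 differentiating neuron-like cells (55.3%, interval 40.1 to 69.8) and 19 of 45 epibranchial neuron-like cells (42.2%). It was in 13 of 40 surface ectoderm-like cells (32.5%), 22 of 123 neural tube progenitor-like cells (17.9%) and 20 of 145 otic epithelium-like cells (13.8%). Only 1 of 33 early neuroblast-like cells (3.0%) held it, at 2.56 FPKM, and the correction for transfer removed that cell. Differentiating neuron-like cells supplied 44.5% of the summed FPKM of Ntrk2 and epibranchial neuron-like cells 22.7%.

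The level of Ntrk2 rose between early neuroblast-like and differentiating neuron-like cells. Mean log2(FPKM + 1) was 0 and 0.11 in the early neuroblast-like replicates, 3.58 and 2.80 in the differentiating neuron-like replicates, and 0.45 and 0.59 in the otic epithelium-like replicates. The neuron values did not overlap those of these other classes, in replicates or in plates. The difference from early neuroblast-like cells was 3.14 (SE 0.49, limma, adjusted p = 0.0015) and that from otic epithelium-like cells 2.67 (SE 0.49, adjusted p = 0.0018), each higher in 6 of 6 plates, where 4.2% and 9.35% of genes were called. These calls were lost among cells that had no source well, where 3 of 14 differentiating neuron-like cells (21.4%) held Ntrk2 and the differences were 1.06 (adjusted p = 0.74) and 0.51 (adjusted p = 0.98). They were kept after the correction for transfer, at 3.02 (adjusted p = 0.0028) and 2.59 (adjusted p = 0.0029), with Ntrk2 in 24 of 47 neurons.

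Among the differentiating neuron-like cells, Tlx3, a transcription factor of some cranial sensory neurons, was in 7.7% of the 26 cells with Ntrk2 and 61.9% of the 21 without. Gata3 was in 15.4% and 42.9%, and Jag1 in 76.9% and 38.1%. Top2a, a proliferation gene, was in 42.3% of cells with Ntrk2 and 71.4% of those without. In epibranchial neuron-like cells Tlx3 was the other way about, in 89.5% of the 19 cells with Ntrk2 and 46.2% of the 26 without, and Pou4f1 in 13 of the 19 and 3 of the 26. These patterns were chosen after their values were seen and were not tested.

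Epibranchial neuron-like cells had Ntrk2 means of 2.56 and 2.04, and their difference from differentiating neuron-like cells was -0.89 (SE 0.49, limma, adjusted p = 0.71, 1.16% of genes called). Among cells without a source well 6 of 12 epibranchial neuron-like and 3 of 14 differentiating neuron-like cells held Ntrk2, and the difference had the other sign (1.63, adjusted p = 0.58). With classes set by marker score it was called at -1.68 (adjusted p = 0.040). The other members were not called between these 2 kinds of neuron: Bdnf differed by -0.90 (SE 0.45, adjusted p = 0.64), Ngfr by 0.39 (SE 0.20, adjusted p = 0.68) and Ntf3 by -0.02 (SE 0.38, adjusted p = 0.998).

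The cluster led by Otx2 and Lmx1a, whose leading genes also include Colec12, Msx1 and Rspo1, had Ntrk2 means of 4.06 and 2.39 against 0.50 and 0.98 in neural tube progenitor-like cells. The difference of 2.49 (SE 0.49, limma, adjusted p = 0.0047) was positive in 5 of 6 plates, in a comparison that was added after the data were seen and called 6.61% of genes as higher. All 5 of its cells without a source well held Ntrk2, at a difference of 3.94 (adjusted p = 0.0057) from the neural tube progenitor-like cells of the same kind. With 5 cells in all, the cluster was below the minimum of 5 cells per class and replicate of the main fit. That p-value therefore rests on means of very few cells. With the log2 of the mean FPKM in place of the mean log2 value the difference was 1.88 and not called (adjusted p = 0.14).

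**Figure D3:**
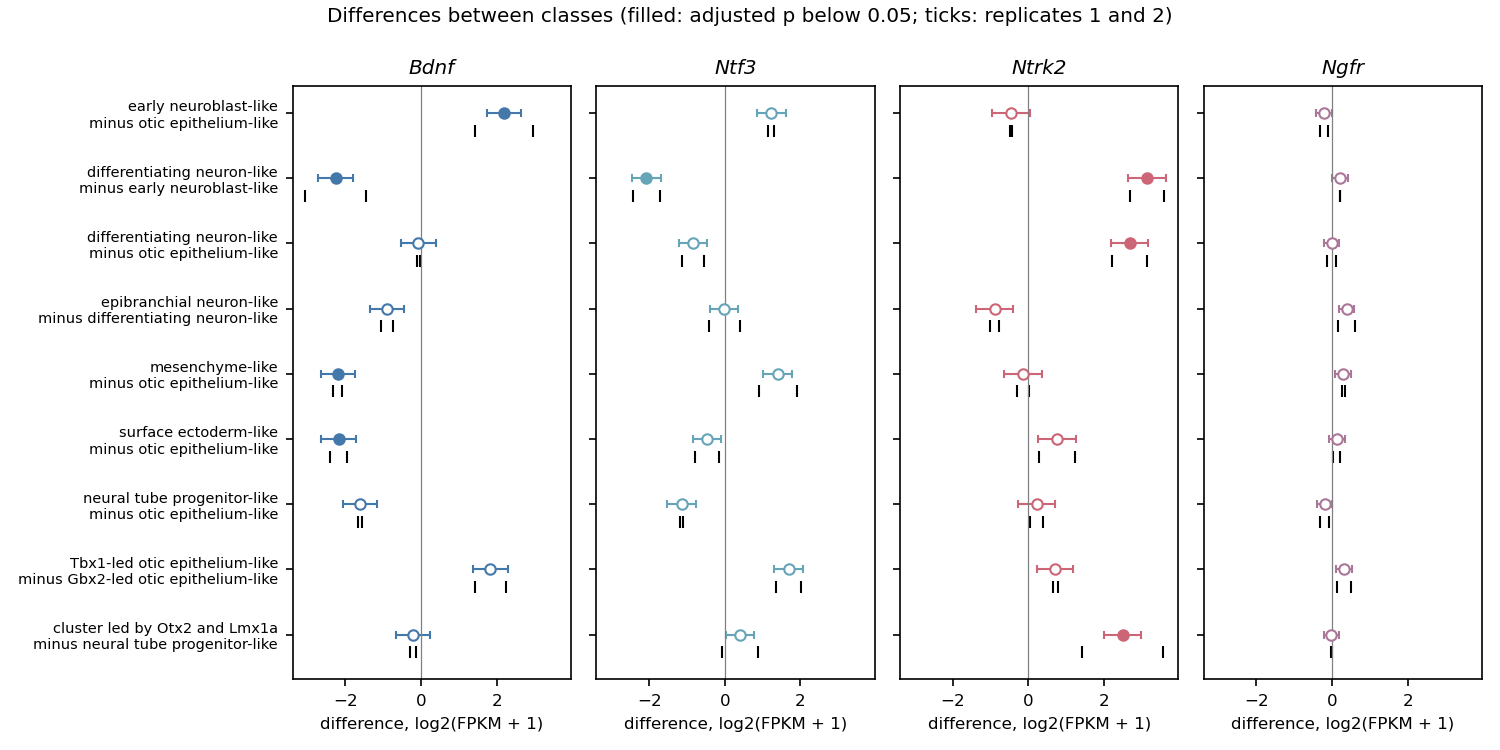
Difference in mean log2(FPKM + 1) between classes for the 4 genes; circles are limma estimates with their SE, filled where the adjusted p was below 0.05, and ticks below them the values of replicates 1 and 2. Between early neuroblast-like and differentiating neuron-like cells Bdnf (-2.26) and Ntf3 (-2.07) are lower and Ntrk2 (3.14) is higher in the neurons.

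Ngfr was scarce, with 25 of 491 cells (5.1%). It was in 7 otic epithelium-like, 6 epibranchial neuron-like, 4 mesenchyme-like and 3 cells of the cluster led by Dll3 and Crabp1, and in 2 differentiating neuron-like, 2 surface ectoderm-like and 1 neural tube progenitor-like cell. All 7 otic cells belonged to the Tbx1-led cluster, where they were 8.0% of cells. The 2 surface ectoderm-like cells, on plates 2 and 4, had the highest values at 127 and 95.5 FPKM and carried 34.5% of the summed signal. None of 33 early neuroblast-like cells and none of 12 cells of the cluster led by Otx2 and Lmx1a held Ngfr, and for the cluster the exact 95% interval still reaches 26.5%. Means per class and replicate ran from 0 to 0.81, and no comparison called it (limma, adjusted p from 0.65 to 1 over the 9 comparisons). The SE of its differences was 0.20 to 0.21.

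Of the 7 otic epithelium-like cells with Ngfr, 5 held Lfng (71.4%) and 4 held Fgf3 (57.1%), against 10.9% and 5.1% of the 138 cells without it. Lmx1a was in 1 of the 7 (14.3%) and in 68.8% of the others. Ntf3 was in 4 of the 7 and Bdnf in 6. All 7 were in the Tbx1-led cluster, so these shares overlap with the split between the otic clusters, and they were not tested. Over all classes Ngfr shared 6 cells with Ntrk2, which is 24.0% of cells with Ngfr and 5.1% of cells with Ntrk2.

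When the classes were ordered by mean level, every pair of neighbours in the order overlapped over the 6 plates for each of the 4 genes. For Bdnf the order began with early neuroblast-like (4.92), otic epithelium-like (2.56) and differentiating neuron-like cells (2.49). For Ntf3 it began with mesenchyme-like (2.51) and early neuroblast-like cells (2.49), followed by otic epithelium-like cells (1.25). For Ntrk2 the cluster led by Otx2 and Lmx1a (3.36) was followed by differentiating neuron-like (3.13) and epibranchial neuron-like cells (2.27). For Ngfr the highest means were 0.57 in epibranchial neuron-like and 0.55 in mesenchyme-like cells.

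Of 33 early neuroblast-like cells, 31 held Bdnf or Ntf3 without Ntrk2 or Ngfr, 1 held both kinds of gene and none a receptor alone. Of 145 otic epithelium-like cells, 74 held a ligand only, 23 both and 4 a receptor only. Of 47 differentiating neuron-like cells, 11 held a ligand only, 16 both and 11 a receptor only. In surface ectoderm-like cells the receptor-only cells (13 of 40) outnumbered those with a ligand only (8), and in the cluster led by Otx2 and Lmx1a 8 of 12 cells held a receptor only. Other ligands and receptors were not counted here. Ntf5 (neurotrophin 4), described below, also acts through TrkB and was in 25 of 40 surface ectoderm-like cells (62.5%). All these counts use values as deposited. Correction for transfer left 8 of the 14 differentiating neuron-like cells with both Bdnf and Ntrk2.

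**Figure D4:**
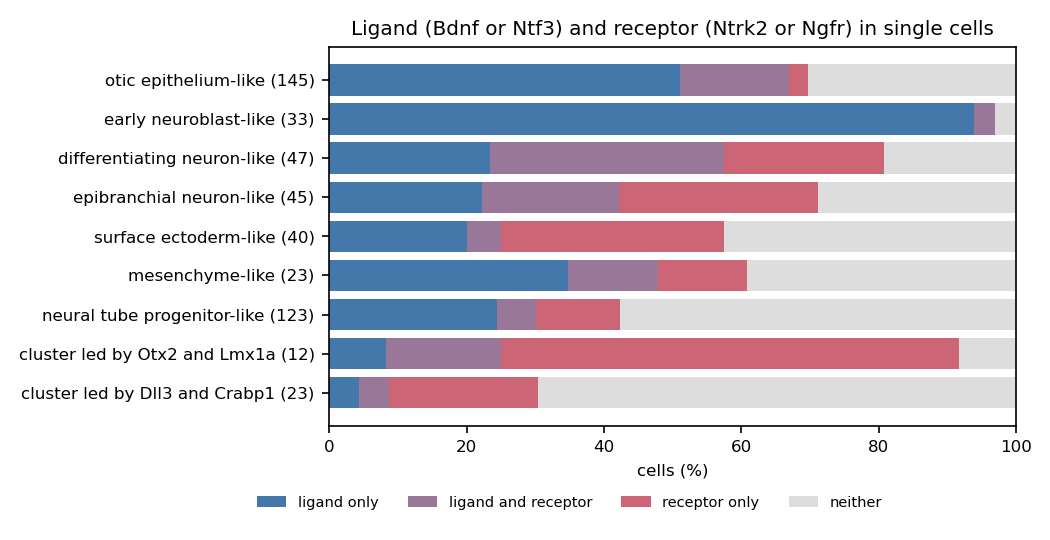
Percent of the cells of each class (rows) with a ligand only (Bdnf or Ntf3), ligand and receptor, a receptor only (Ntrk2 or Ngfr) or neither, at an FPKM of at least 1. Values are as deposited, and other ligands and receptors are not counted. Ligand-only cells make up 93.9% of early neuroblast-like cells and 23.4% of differentiating neuron-like cells, in which 34.0% hold both.

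Bdnf and its receptor gene Ntrk2 were found together in 46 cells, 22.8% of cells with Bdnf and 39.3% of cells with Ntrk2. In differentiating neuron-like cells 14 of 26 cells with Ntrk2 held Bdnf as deposited (53.8%), close to the 55.3% of all cells of that class with Bdnf. After correction for transfer 8 of 24 cells with Ntrk2 held Bdnf there (33.3%), against 44.7% of all cells of that class. Of the 3 such neurons with Ntrk2 and without a source well, 2 held Bdnf. The correction for transfer reduced the 46 cells to 24, and in the 154 cells without a source well 10 held both. Ntf3 and Ntrk2 were together in 18 cells, 11 of them otic epithelium-like, where 11 of the 20 cells with Ntrk2 held Ntf3 against 25 of the 125 without. In that class both genes were mostly in the Tbx1-led cluster, so the shares overlap with the split between its clusters. Over all 491 cells, Pearson's r on log2(FPKM + 1) was 0.16 between Bdnf and Ntf3, -0.03 between Bdnf and Ntrk2 and -0.05 between Ntf3 and Ntrk2. These values describe cells that share plates, depth and transfer.

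The genes whose levels ran most like each member's were found by Pearson's r over all 491 cells. For Bdnf they included Gata3 (0.41), Fgf10 (0.38), Mdk (0.32) and Ccnd1 (0.32). For Ntf3 they were Lfng (0.34), Gm266 (0.32), Slitrk6 (0.31), Otol1 (0.31) and Shisa2 (0.31). In the 154 cells without a source well Fgf10 (0.52) led for Bdnf, and Lfng (0.52) and Otol1 (0.48) led for Ntf3. Gata3 (0.29), Mdk (0.31) and Ccnd1 (0.26) ranked only 53, 33 and 87 there for Bdnf, and Shisa2 (0.32) ranked 36 for Ntf3. For Ntrk2 the genes most like it were Ttll7 (0.53), Alcam (0.50), P2rx3 (0.48), Nrg1 (0.47) and Coro2a (0.45). Alcam, a cell adhesion gene of growing axons, ranked first in cells without a source well (0.43), and Ttll7 ranked 8 (0.38). P2rx3 (0.28), Nrg1 (0.30) and Coro2a (0.27) fell there to ranks 69, 45 and 97. For Ngfr the genes most like it were Ret (0.28), Syt4 (0.28), Frem1 (0.23), Fgf3 (0.23) and Nap1l5 (0.23). Without source wells Ret, Syt4 and Nap1l5 fell to -0.04, -0.04 and -0.04, whereas Frem1 and Fgf3 stood at 0.43 and 0.42. These are weak to moderate values in sparse data and are given as a description.

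Among the other genes of the pathway, 81 were listed and 68 tested. The ligand Ntf5, neurotrophin 4, which also acts through TrkB, was in 25 of 40 surface ectoderm-like cells (62.5%) and 3 of 145 otic epithelium-like cells (2.1%). Its means were 2.2 and 2.80 in the surface ectoderm-like replicates against 0.11 and 0.08. The difference was 2.41 (SE 0.25, limma, adjusted p = 1.7e-05), higher in 6 of 6 plates.

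Across the lists few genes passed. From otic epithelium-like to early neuroblast-like cells 1 of the 68 tested pathway genes was higher and 3 lower, where 3.39% of all genes were called. The lower genes were Map2k1, a kinase of the Ras pathway, at -2.26 (SE 0.54), Tnfrsf19, a p75-related receptor, at -1.82 (SE 0.39) and Bex1, a p75 partner, at -1.73 (SE 0.41). The median difference over the 68 genes was -0.09, against -0.11 over all 10168. From early neuroblast-like to differentiating neuron-like cells 2 were higher and none lower, against 4.2% of all genes called, among them Lingo1, a co-receptor that can pair with p75, at 1.28 (SE 0.26), with a median of 0.14 against -0.00065 over all genes. From otic epithelium-like to differentiating neuron-like cells 7 were higher and 6 lower, where 9.35% of all genes were called, and the median was 0.05 against -0.12 over all genes. Among those were Shc2, a Trk adaptor, at 2.58 (SE 0.53), and, lower, the early response gene Fos at -2.16 (SE 0.56), Map2k1 at -1.99 (SE 0.54) and the Ras pathway inhibitor Spry1 at -1.99 (SE 0.49). Of 11 tested neurotrophin-responsive genes 3 were lower and none higher in that comparison. None of the 6 tested convertases and shedding enzymes, among them those that cut pro-neurotrophins, was called in these 3 comparisons. Between early neuroblast-like and differentiating neuron-like cells 3 of the 4 members were called, against 4.2% of all genes. The members were chosen with earlier results of these data known, so this share does not measure how unusual the family is.

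**Figure D5:**
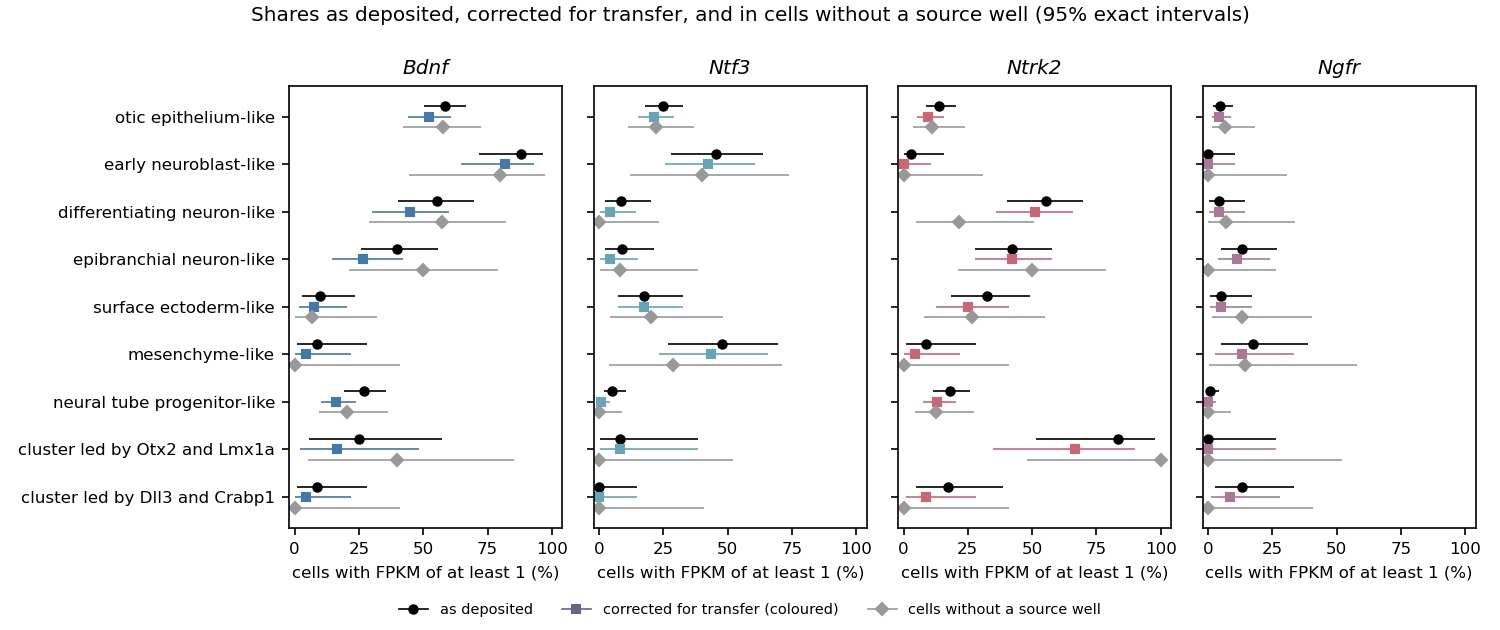
Percent of cells with each gene by class as deposited (black circles), after correction for transfer between wells (coloured squares) and in cells without a source well (grey diamonds), with exact 95% intervals. The Ntrk2 share of differentiating neuron-like cells is 55.3% as deposited, 51.1% corrected and 21.4% without a source well, while that of Bdnf in early neuroblast-like cells is 87.9%, 81.8% and 80.0%.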

How the data were processed

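The samples were 491 single cells on 6 plates. The submitters' processing notes name, without versions, FastQC and cutadapt, the aligners Bowtie, Bowtie2 and TopHat, then SAMtools, Cufflinks and the build mm10. The authors deposited 1 table of 19659 gene lines, read here as log2(FPKM + 1): 2 raised to each value, minus 1, gave numbers of 6 significant digits for 99.69% of values above 0 (relative tolerance 1e-07). Read depth is unknown; a cell held 2552 to 6403 genes at an FPKM of 1 or more, with a median of 4513. Symbols came from GENCODE M21.

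Cells were clustered on 96 markers (15 principal components, 15 neighbours, Leiden resolution 1, scanpy 1.11.5). Log2 values were averaged within each class and replicate, and these means were fitted with limma 3.58.1, with class and replicate as terms and a trended prior. A class needed at least 5 cells in both replicates to enter the main fit, and fewer were accepted in the fit of cells without a source well. Tests covered 10168 genes, markers left out, adjusted by Benjamini-Hochberg with a threshold of 0.05. The fit was tested on simulated data. Named genes were the members, at most 6 called pathway genes per comparison, taken by size of difference, and the 5 genes most correlated with each member; other genes set beside the members came from a listed set and were picked after their values were seen. The members, lists and comparisons were chosen with earlier results of these data known. A few genes of these lists are not reported here.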

Additional observations from a re-analysis of the deposited data

How the results depend on the processing

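Across 652 alternatives for the members and comparisons, 595 were counted as the same, 15 lost a call, 10 gained one, 26 tested values changed sign and 6 values without a test moved. For tested values the same meant no change of sign or of side of the threshold. With 1 replicate left out there was no test, and the same meant a value near the main one relative to its SE. Some uncalled values counted so changed sign, such as Ntf3 in epibranchial minus differentiating cells (-0.017, and 0.39 without replicate 1). The fit with no replicate block changed no call of a member (Bdnf, early neuroblast-like minus otic epithelium-like: 2.19, adjusted p = 0.016 in limma). Correcting values for transfer kept every call of a member. With log2 of the mean FPKM + 1, Bdnf was 1.62 from otic epithelium-like to early neuroblast-like cells and -1.74 from there to differentiating neuron-like cells, both no longer called, Ntf3 was -3.70 in neural tube progenitor-like cells (called), Ntrk2 was 1.88 in the cluster led by Otx2 and Lmx1a (not called), and the uncalled values of Ngfr (neurons minus otic, 0.046) and Ntf3 (epibranchial minus differentiating, 0.43) changed sign. In cells that had no source well, Bdnf was 2.39 and -1.90 in the first 2 of these comparisons and -2.21 in surface ectoderm-like cells, Ntf3 was -2.15 and Ntrk2 1.06 from early neuroblast-like to differentiating neuron-like cells, and Ntrk2 was 0.51 from otic epithelium-like to differentiating neuron-like cells, none called. There the uncalled Bdnf (0.49 neurons minus otic, 0.085 in the Otx2 and Lmx1a cluster), Ngfr (0.031 neurons minus otic, -0.36 epibranchial minus differentiating), Ntf3 (0.42) and Ntrk2 (1.63, both epibranchial minus differentiating) changed sign. With classes set by marker score, Bdnf was 1.12 (early neuroblast-like minus otic) and -1.46 (mesenchyme-like minus otic) and Ntf3 -1.32 (differentiating minus early neuroblast-like), none called, Ntrk2 was -1.68 (epibranchial minus differentiating, called), and Ngfr (0.32 neurons minus otic, -0.36 epibranchial minus differentiating) and Ntrk2 (0.11 mesenchyme-like minus otic) changed sign. Means per plate called Bdnf at -1.58 (neural tube minus otic) and 1.89 (Tbx1-led minus Gbx2-led), and turned Ngfr to 0.017 (neurons minus otic), as did correction for transfer (0.019). Leiden resolution 1.5 called Bdnf at -1.61 (neural tube minus otic) and turned Ntf3 to 0.030 (epibranchial minus differentiating). Leaving out the cells with endothelial or macrophage markers called Bdnf at -1.70 (neural tube minus otic), and upper-quartile scaling called Ntf3 at 1.48 (mesenchyme-like minus otic). The cause of these changes was not tested.

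Leaving out 1 replicate or plate gave these ranges. Early neuroblast-like minus otic gave 1.42 to 2.95 for Bdnf and 0.50 to 1.71 for Ntf3. Differentiating minus early neuroblast-like gave -3.06 to -1.46 for Bdnf and -2.61 to -1.28 for Ntf3. Neurons minus otic gave -0.22 to 0.18 for Bdnf and -0.13 to 0.11 for Ngfr. Epibranchial minus differentiating gave -0.43 to 0.39 for Ntf3. Mesenchyme-like minus otic gave 0.90 to 1.90 for Ntf3 and -0.43 to 0.027 for Ntrk2. Surface ectoderm-like minus otic gave -0.010 to 0.22 for Ngfr. Neural tube minus otic gave -1.68 to -1.54 for Bdnf, Tbx1-led minus Gbx2-led 1.36 to 2.01 for Ntf3, and the Otx2 and Lmx1a cluster minus neural tube 1.41 to 3.56 for Ntrk2. Genes called numbered 345 for early neuroblast-like against otic cells (80 without source wells, 461 without the filter on low values), 427 between differentiating and early neuroblast-like cells (16 without source wells, 777 without plate 5), 951 for neurons against otic cells (186 without source wells) and 39 between the otic clusters (1 without source wells, 144 without the filter). Mesenchyme-like cells could not be compared without plate 5 or in cells without a source well, the otic clusters not by marker score, and the Otx2 and Lmx1a cluster not by marker score or without plates 2, 4, 5 or 6. Read depth is unknown, so a gene listed at 0 may be present below detection, and 33 early neuroblast-like and 12 cluster cells limit every comparison with them.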

Other observations

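Of the 20 otic epithelium-like cells with Ntrk2, 18 were in the Tbx1-led cluster (20.5% of it) and 2 in the Gbx2-led cluster (3.5%), so shares of patterning genes beside Ntrk2 overlap with that split. Tbx1, which was used to make the clusters, was in 17 of the 20 (85%) and 48 of the 125 (38.4%). Otx1, a transcription factor gene of the lateral and ventral otic vesicle, was in 9 of the 20 and 8 of the 125 (6.4%), and Isl1 in 13 of the 20 and 35 of the 125 (28%). After correction for transfer 14 otic epithelium-like cells held Ntrk2, and 5 of the 45 without a source well did. These shares were chosen after their values were seen and were not tested.

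In differentiating neuron-like cells Mki67, a proliferation gene, was in 15 of 26 cells with Bdnf (57.7%) and 4 of 21 without (19.0%), and in 7 of 26 cells with Ntrk2 (26.9%) and 12 of 21 without (57.1%). Top2a was in 69.2% of cells with Bdnf and 38.1% of those without, and in 42.3% and 71.4% for Ntrk2. Gata3 was in 38.5% of cells with Bdnf and 14.3% of those without, against 15.4% of cells with Ntrk2 and 42.9% of those without. In these neurons 12 cells held Bdnf without Ntrk2, 12 held Ntrk2 without Bdnf and 14 held both. These shares pool the plates, use values as deposited and were not tested. After correction for transfer 21 of these neurons held Bdnf, 24 held Ntrk2 and 8 held both.

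Against otic epithelium-like cells, neural tube progenitor-like cells had 4 of 68 tested pathway genes lower and none higher (limma, Benjamini-Hochberg, 3.62% of all genes called), among them Etv5, a target of growth factor signalling, at -2.41 (SE 0.42, adjusted p = 0.0023). Surface ectoderm-like cells had 3 higher and 1 lower (2.7% of all genes called), the last being Map2k1 at -3.45 (SE 0.54, adjusted p = 0.0014). The cluster led by Otx2 and Lmx1a had 5 higher than neural tube progenitor-like cells and none lower, a share close to the 6.61% of all genes called higher there, led by the Trk adaptor gene Shc1 at 3.29 (SE 0.56, adjusted p = 0.0015).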
